A study of Canis lupus familiaris with 18 samples.

Results

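Genes that are restricted to endothelial cells were sought in cultures of canine primary endothelial cells (CaPECs) and vascular smooth muscle cells (VSMCs). The members were chosen by their measured values: a gene had to reach at least 5 CPM (the read count of the gene scaled to the total count of its sample) in all 9 CaPEC samples and to stay below 2 CPM in all 9 VSMC samples. Of the 24580 genes in the table, 8 met this rule. The lower limit was met by 7909 genes and the upper limit by 13213, among them 7671 with no count in any sample. By the mirrored rule, at least 5 CPM in all VSMCs and below 2 CPM in all CaPECs, 5 genes were restricted to VSMCs. The difference between CaPECs and VSMCs fixed the membership and is therefore described without a test.

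CaPECs came from the inner lining of 3 abdominal vessels (vena cava, aorta, and vena porta) of 3 healthy young adult male dogs, and VSMCs from the wall of the same kinds of vessel. Both were sequenced at passage 3, untreated, with 3 samples for each vessel and cell type and 18 samples in all. CaPECs were grown on gelatin in an endothelial growth medium and VSMCs in a medium with fetal calf serum, so cell type and culture conditions cannot be told apart. The cells were expanded in culture, and the methods name no sorting step. The total count was 6020932 to 13422177 in CaPECs (median 8464427) and 7341227 to 15746769 in VSMCs (median 10027682).

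Endothelial cells form the inner surface of every blood vessel and are in contact with the blood. Proteins for which they are known are the adhesion molecules of their junctions, the receptors for vascular endothelial growth factors and angiopoietins, and regulators of clotting and of leukocyte adhesion. Endothelial cells of arteries and veins are known to differ in some of these genes, and endothelial cells in culture can lose part of their expression program. The deposited table lists genes by Ensembl identifier without symbols, and 0 of the 24580 identifiers were found in the gene table at hand, so it is not stated here which known endothelial genes the 8 are. For the same reason the labelled cell types were not checked against marker genes, and no gene lengths, positions, or sequences are given. The 8 genes are called A to H in the order of their mean CPM in CaPECs. As CPM is not scaled to gene length, this order is not a ranking of transcript numbers. Genes A (ENSCAFG00000013538), C (ENSCAFG00000005887), D (ENSCAFG00000028975), and G (ENSCAFG00000002850) are given with their identifiers.

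The vena cava CaPEC samples 1 and 3 lay apart from vena cava 2. Over 11696 genes, the correlation of log2 CPM was 0.948 between vena cava 1 and 3, but 0.848 between vena cava 1 and 2 and 0.855 between vena cava 3 and 2. Vena cava 2 had a median correlation of 0.918 with the 6 CaPEC samples of the other vessels, whereas this was 0.849 for vena cava 1 and 0.869 for vena cava 3. The same measure was 0.852 for aorta 1 and 0.874 for vena porta 3, so low correlations with other vessels were not particular to vena cava 1 and 3. Within the aorta and within the vena porta, the correlations between samples were 0.919 or more. Genes in a sample share its library, so these values are a description. The total counts of vena cava 1 (7602808) and vena cava 3 (9858752) were within the range of the other CaPEC samples. The tests between vessels, the range of the members, and the number of members are given with and without these libraries.

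**Figure D1:**
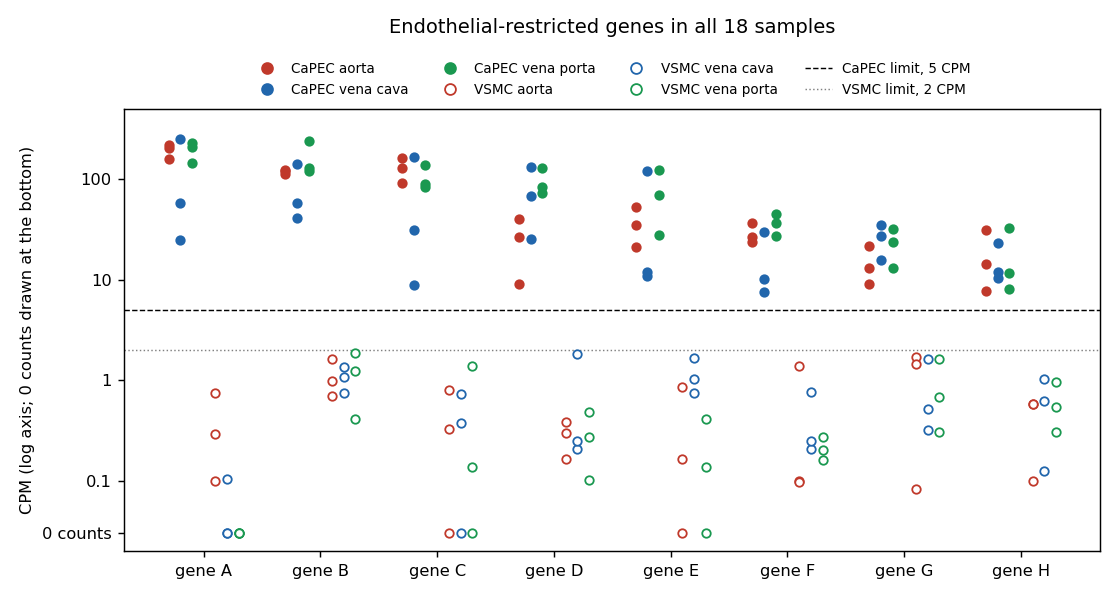
Each point is the CPM of 1 sample on a log axis, with CaPECs as filled and VSMCs as open points, colored by vessel; values of 0 counts are drawn at the bottom, and the lines mark the limits of 5 and 2 CPM. All CaPEC points lie above 5 CPM and all VSMC points below 2 CPM, as the rule requires, while the 8 genes differ in how far the vena cava points spread.

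The members differed in their level in CaPECs and in how near to 0 they were in VSMCs. Gene A had a mean of 166.4 ± 78.8 CPM in CaPECs (SD, n = 9) and 0.137 ± 0.246 CPM in VSMCs (SD, n = 9), a ratio of the means of 1216. It had 0 counts in 5 of the 9 VSMC samples, each of which allows a level of up to 0.191 to 0.409 CPM (3 counts of the total), and 14 counts over all 9. It was the only gene that was also below 1 CPM in every VSMC sample. Intervals and limits of this kind cover counting error only.

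Gene B had a mean of 121 ± 56.3 CPM in CaPECs and 1.11 ± 0.463 CPM in VSMCs, with counts in all 9 VSMC samples and a ratio of 109. Gene C was at 100.3 ± 54.8 CPM in CaPECs and 0.415 ± 0.469 CPM in VSMCs, a ratio of 242, with 3 VSMC samples at 0. Genes D, E, and F were at 65.5 ± 44.7, 52.7 ± 43.9, and 27.1 ± 12.2 CPM in CaPECs, with ratios of 147, 95, and 70.6 to VSMCs. The lowest ratios were those of gene G (23.1) and gene H (31.2), which had 21.2 ± 9.10 and 16.7 ± 9.62 CPM in CaPECs. The ratio thus went from 23.1 to 1216, and the level in VSMCs was from 0.0822% of the CaPEC mean for gene A to 4.34% for gene G. Since the rule kept every VSMC value below 2 CPM, genes with a high level in CaPECs had to have a high ratio. Several of the ratios depended on 1 VSMC library. For gene A, 9 of the 14 VSMC counts were in aorta 1, and the ratio without this library was 2708. For gene D, 29 of the 51 VSMC counts were in vena cava 1, and the ratio without it was 242. Gene F had 17 of its 41 VSMC counts in aorta 1, with a ratio of 106 without it. Gene C had 17 of its 40 in vena porta 3, with a ratio of 340 without it.

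Within VSMCs, 10 of the 72 values were at 0 and 15 were at 1 CPM or more. The summed level of the 8 genes was 1.73 to 6.46 CPM in VSMCs and 214.6 to 953.7 CPM in CaPECs. With 0 to 29 counts per gene and sample, differences among the VSMC samples are imprecise. In such cultures, fewer cells of a type and less RNA per cell cannot be told apart.

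Some members were close to a limit. Gene B reached 1.86 CPM, gene D 1.84 CPM, and gene G 1.70 CPM in their highest VSMC sample. In their lowest CaPEC sample, gene F was at 7.61 CPM, gene H at 7.80 CPM, and gene C at 8.94 CPM. Of the genes that passed in all CaPECs, those just outside the upper limit reached 2.09, 2.26, and 2.50 CPM in VSMCs. Of the genes that passed in all VSMCs, those just outside the lower limit were at 4.08, 3.45, and 3.35 CPM in their lowest CaPEC sample. With TMM-normalized CPM, 7 of the 8 genes remained and gene B was lost.

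Genes A, B, C, E, and F had their 2 lowest CaPEC values in vena cava 1 and vena cava 3. Gene A was at 217, 202, and 160.3 CPM in aorta 1, 2, and 3, and at 229, 145.1, and 208 CPM in vena porta 1, 2, and 3. In the vena cava, it was at 24.6, 254, and 57.5 CPM, so that this vessel held both the lowest and the highest CaPEC sample. The 95% exact Poisson interval of vena cava 1 was 21.2 to 28.4 CPM (187 counts) and did not reach that of vena cava 3, at 52.9 to 62.4 CPM.

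Gene C repeated this pattern with a larger range. Its CPM was 130.2, 92.0, and 163 in the aorta, 139, 83.0, and 90.2 in the vena porta, and 8.94, 165, and 31.5 in the vena cava. The highest sample was 18.4 times the lowest, the widest range of the 8 genes. Without vena cava 1 and 3, the other 7 samples were between 83.0 and 165 CPM, a range of 1.98 times.

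Gene B was even across the aorta, at 114, 123, and 122 CPM (119 ± 5.06, SD, n = 3). It was at 58.1, 140.2, and 41.1 CPM in the vena cava and at 241, 122, and 129 CPM in the vena porta. Vena porta 1 was thus the highest and vena cava 3 the lowest CaPEC sample of gene B. Gene F was at 36.5, 23.8, and 26.5 CPM in the aorta, 10.3, 29.8, and 7.61 CPM in the vena cava, and 45.2, 27.4, and 36.5 CPM in the vena porta. The vena cava samples 1 and 3 did not overlap with any other CaPEC sample in genes A, B, C, E, and F, 5 of the 8 members. Of the 7909 genes at 5 CPM or more in all CaPECs, 9.65% had their 2 lowest values in these samples and 18.1% their 2 highest. These libraries thus differed from the others in many genes, and the count of 5 is a description without a test.

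Gene E varied inside every vessel. Its CPM was 21.0, 52.3, and 34.7 in the aorta, 10.9, 121, and 11.9 in the vena cava, and 124, 27.9, and 70.3 in the vena porta. The intervals of vena cava 1 (8.70 to 13.5 CPM) and vena cava 3 (9.81 to 14.2 CPM) overlapped, and both lay below those of the other 7 samples. Without vena cava 1 and 3, its highest sample was still 5.92 times its lowest.

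**Figure D2:**
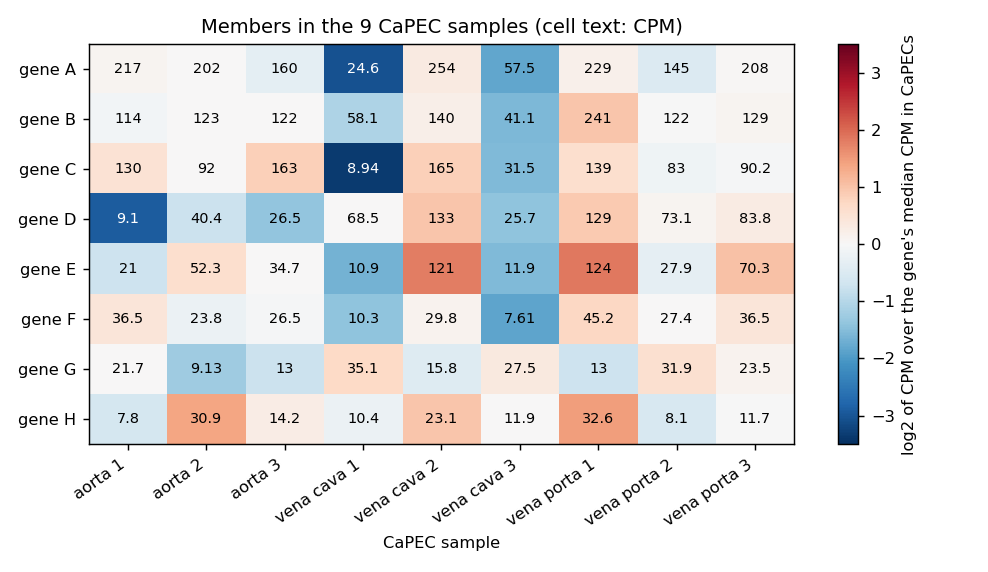
The color gives the log2 of the CPM of each gene over its own median in the 9 CaPEC samples, and the text in each cell is the CPM. Vena cava 1 and 3 are blue in genes A, B, C, E, and F, vena cava 2 is not, and gene D is lowest in the aorta 1 sample.

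Genes D, G, and H did not share this pattern. Gene D was at 9.10, 40.4, and 26.5 CPM in the aorta, 68.5, 133, and 25.7 CPM in the vena cava, and 129, 73.1, and 83.8 CPM in the vena porta. Vena cava 3 lay among the aorta samples. Aorta 1 (77 counts, interval 7.18 to 11.4 CPM) was the lowest CaPEC sample, and vena cava 2, the highest, was at 14.6 times its level.

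Gene G had the narrowest range of the 8 genes, with its highest sample at 3.84 times its lowest. It was at 21.7, 9.13, and 13.0 CPM in the aorta, 35.1, 15.8, and 27.5 CPM in the vena cava, and 13.0, 31.9, and 23.5 CPM in the vena porta. Vena cava 1, the lowest sample of genes A, C, and E, was the highest of gene G. Gene H was at 7.80, 30.9, and 14.2 CPM in the aorta, 10.4, 23.1, and 11.9 CPM in the vena cava, and 32.6, 8.10, and 11.7 CPM in the vena porta. All 3 vessels overlapped in genes G and H.

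The correlations of log2 CPM between members over the 9 CaPEC samples are a description, since the genes share the libraries. Genes A and C had a correlation of 0.962, genes B and F of 0.945, and genes G and H of -0.821. Over all 28 pairs the median was 0.437, 13 pairs were above 0.5, and 8 were negative. Without vena cava 1 and 3, the median over the remaining 7 samples was 0.279 and the correlation of genes A and C was 0.398, while that of genes G and H was -0.842.

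**Figure D3:**
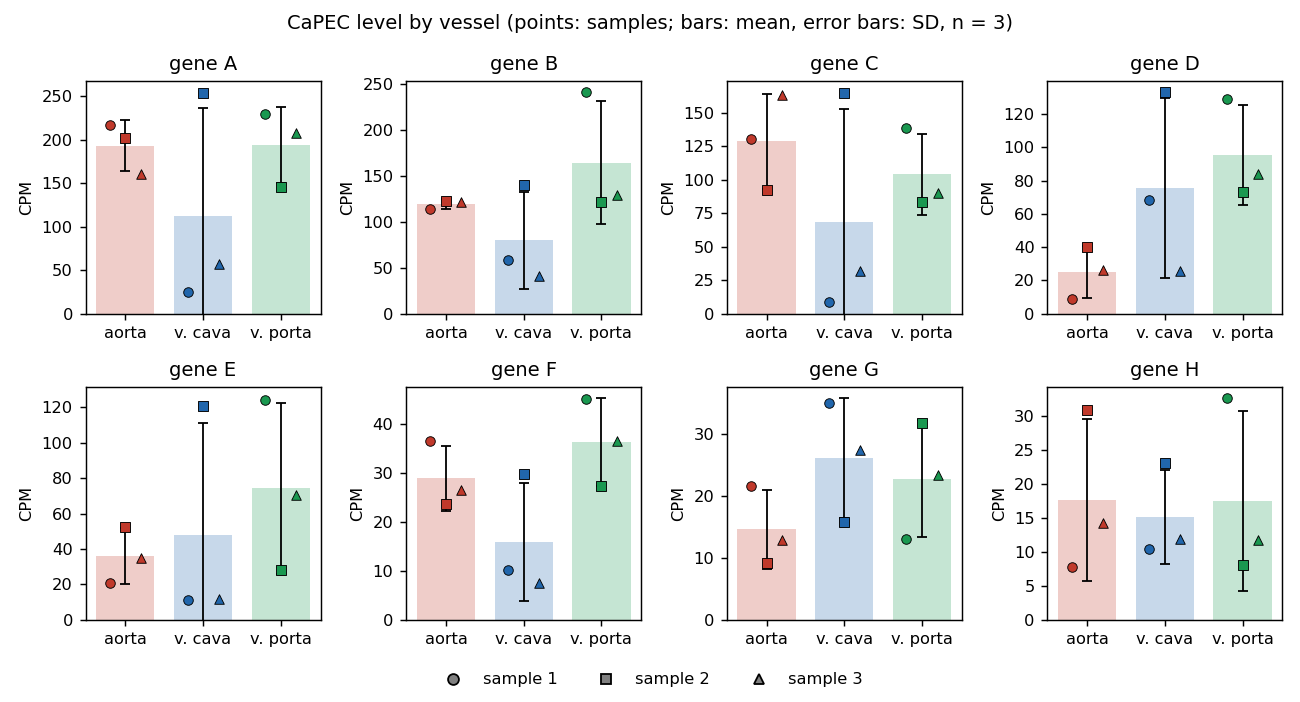
CPM of each gene in CaPECs by vessel, with samples 1 to 3 as points, bars at the mean, and error bars for the SD (n = 3); where the SD exceeds the mean, the error bar runs below the axis. The means for the vena cava combine a high sample 2 with low samples 1 and 3 in genes A, B, C, E, and F.

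The level of the members was next compared between the 3 vessels in CaPECs, a comparison the rule did not use except that all members had to reach 5 CPM in every sample. The test was edgeR's quasi-likelihood test with Benjamini-Hochberg adjustment over all 11696 genes that passed the count filter, and all 8 members passed it. At an adjusted p-value below 0.05, 0 of the 8 genes differed between the vessels, where 0.864% of all genes tested were called. Before adjustment, 1 member (gene D) and 17% of all genes were below 0.05. With DESeq2, 0 members and 8.43% of all genes were called at the adjusted threshold, and in edgeR with a block for the shared number (the dog) 0 members and 0.162%. The adjusted p-values ranged from 0.290 for gene D to 0.927 for gene H in edgeR.

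Gene D had the lowest mean in the aorta, with 25.3 ± 15.7 CPM against 75.8 ± 54.1 CPM in the vena cava and 95.4 ± 29.9 CPM in the vena porta (SD, n = 3). Between the aorta and both veins, its log2 fold change was -1.69 (standard error 0.58, edgeR adjusted p = 0.243), which did not pass the test. Gene D was called with DESeq2, at a log2 fold change of -1.69 (standard error 0.53, DESeq2 adjusted p = 0.0361), and without vena cava 1 and 3 edgeR gave -1.99 (standard error 0.46, adjusted p = 0.0576). Of the single libraries, aorta 1 and aorta 2 moved gene D most. Its log2 fold change was -1.29 without aorta 1 (edgeR adjusted p = 0.684) and -2.24 without aorta 2 (edgeR adjusted p = 0.257), and between -1.88 and -1.52 without any other single library. Among the other genes with lower values in the aorta, gene G had the smallest p-value, at a log2 fold change of -0.63 (standard error 0.38, edgeR adjusted p = 0.496), and gene E was at -0.69 with a larger error (0.81, edgeR adjusted p = 0.737).

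Between aorta and veins, a call required both an adjusted p-value under 0.05 and a log2 fold change of more than 0.4 in either direction. By edgeR, 0 of the 8 genes met this, where 0.898% of all genes were called, and with this replicate block 0 of the 8 and 0.402% of all genes. Unadjusted, 1 of the 8 had a p-value below 0.05, against 13.5% of all genes. DESeq2 called 1 of the 8, against 4.39% of all genes. The higher values in the aorta with the smallest p-values were those of gene C, at a log2 fold change of 0.65 (standard error 0.68, edgeR adjusted p = 0.702), and gene A, at 0.42 (standard error 0.61, edgeR adjusted p = 0.786). Without vena cava 1 and 3, these were 0.17 and -0.035. The median log2 fold change of the 8 genes was 0.12, beside -0.03 over all genes tested, and 5 of the 8 were above 0, beside 46.5% of all genes. This direction did not hold, as the median was -0.27 with 1 of the 8 above 0 when vena cava 1 and 3 were both left out. It was also below 0, with 4 of the 8 above 0, without aorta 2 (-0.20), vena cava 1 (-0.021), or vena cava 3 (-0.056).

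Between the vena cava and the vena porta, 7 of the 8 genes had the lower value in the vena cava and 1 the higher value, while 49.6% of all genes tested had the higher value there. The median log2 fold change was -0.67, beside -0.0045 over all genes tested. It was 0.33 without vena cava 1 and 3, with 5 of the 8 above 0, and without vena cava 2 it was -1.95. The replicate block gave -1.19, and the median was -0.28, -0.27, and -0.28 without vena cava 1, vena cava 3, and vena porta 1. None of the 8 was called at an adjusted p-value below 0.05 in edgeR, where 0.00855% of all genes were called, and none with DESeq2, where 2.97% were. With the replicate block, 0 of the 8 and 0% of all genes were called. Unadjusted, genes B and F had p-values below 0.05, against 11.7% of all genes. The log2 fold change was -1.26 for gene F (standard error 0.49, edgeR adjusted p = 0.374) and -1.10 for gene B (standard error 0.45, edgeR adjusted p = 0.392).

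This comparison turned on a single library. Without vena cava 2, edgeR called 5 of the 8 genes (A, B, C, E, and F) lower in the vena cava, where 3.52% of all genes were called lower and 7.76% in either direction. The test over the 3 vessels then called the same 5 genes, where 10.6% of all genes were called. The log2 fold change was then -2.79 for gene E (standard error 0.63), -2.45 for gene C (0.49), -2.33 for gene A (0.38), -2.10 for gene F (0.33), and -1.80 for gene B (0.33), with edgeR adjusted p-values from 0.0103 to 0.0314. Without vena cava 1 and 3 instead, a fit in which the lone vena cava sample is assumed to vary like the other groups, the log2 fold changes of genes A, C, and E were 0.33, 0.61, and 0.64, and edgeR called 0 of the 8 genes and 0.00811% of all genes. In the test over the 3 vessels this was 0 of the 8 and 1.48% of all genes. When the replicate block was added and vena cava 2 was left out, 4 of the 8 genes were called between the veins, where 4.3% of all genes were, and gene E was not (edgeR adjusted p = 0.0854). Over the 3 vessels, the block also gave 4 of the 8, where 4.83% of all genes were called.

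**Figure D4:**
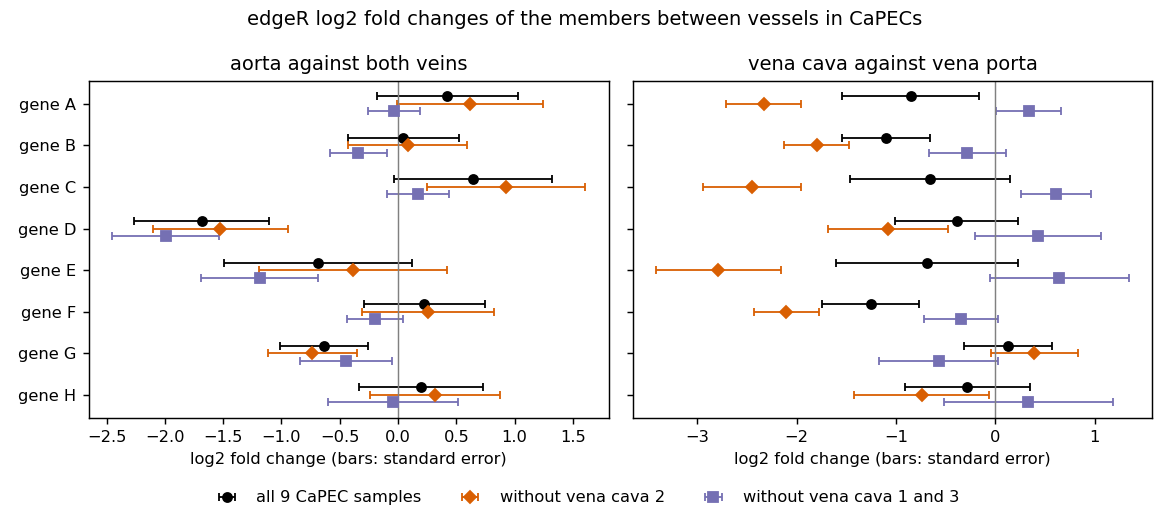
edgeR log2 fold changes of the 8 genes (points) with standard errors (bars) for the aorta against both veins and for the vena cava against the vena porta, with all 9 CaPEC samples and after leaving out vena cava 2 or vena cava 1 and 3. In the vena cava contrast, genes A, C, and E move from between -2.79 and -2.33 to between 0.33 and 0.64 with the choice of libraries, while gene D is between -1.99 and -1.52 in the aorta contrast under these 3 choices.

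Differences between the dogs were tested with the vessel in the model. In edgeR, 0 of the 8 genes and 0% of all genes tested differed at an adjusted p-value below 0.05. Unadjusted, 0 of the 8 and 3.19% of all genes had a p-value below 0.05, and DESeq2 called 0 of the 8 and 0.282% of all genes. For each member, the dog accounted for 6.37% to 12.1% of the sum of squares of log2 CPM and the vessel for 0.235% (gene H) to 56.2% (gene F). The remainder, variation that neither vessel nor dog accounts for, was 32.8% to 91.1%. The medians over the 8 genes were 38.3% for the vessel and 10.4% for the dog, beside 35.5% and 16.2% over the 7909 genes. When vena cava 1 and 3 were left out, where the groups are unequal and each share is taken alone, the medians were 28.6% and 12.2% in the members and 37.9% and 27.1% over the 7909 genes.

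Over all 9 CaPEC samples, the range of the members was wider than that of most genes that met the same lower limit, and vena cava 1 and 3 made up much of it for genes A, B, C, and F. The ratio of the highest to the lowest CaPEC sample was 3.84 to 18.4, with a median of 8.14, and it was above 5 in 6 of the 8 genes. The median over the 7909 genes was 2.01. A ratio above that of gene C was found in 0.898% of these genes, and above that of gene G in 11.1%. For gene B, the lowest of the 6 at 5.87, this was 5.15%. In the 7 samples other than vena cava 1 and 3, the median ratio of the 8 genes was 2.81, beside 1.76 over the 7909 genes. The ratio was then above 5 in 2 of the 8 (genes D and E) and in 287 of the 7909. Genes A, B, C, and F were then at 1.75 to 2.13, and 28.5% to 50.8% of the 7909 genes had a larger ratio. Gene D kept its ratio of 14.6, which 0.645% of the genes exceeded. This is given without a test, since the rule sets a lower limit on the values that enter the ratio.

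**Figure D5:**
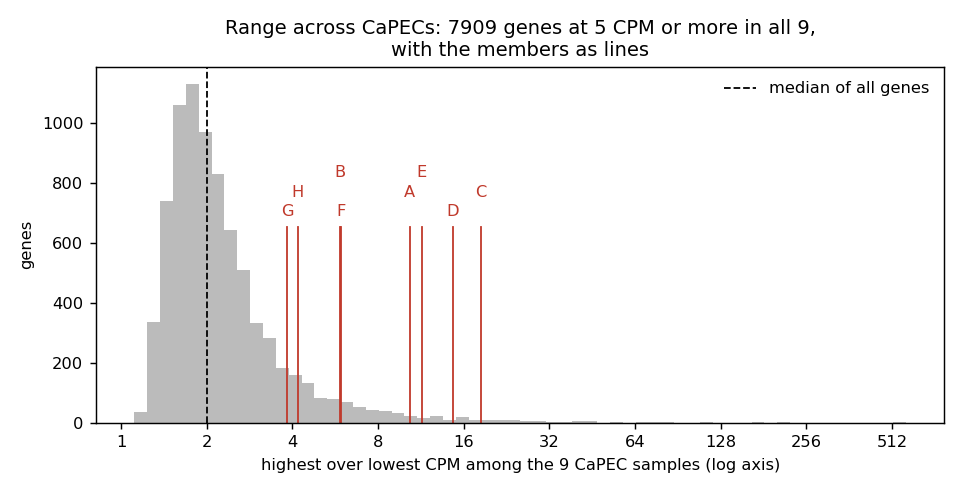
The histogram counts the 7909 genes with at least 5 CPM in all 9 CaPEC samples by the ratio of their highest to their lowest sample on a log axis, with the median of 2.01 as a dashed line. The red lines mark the 8 members, from 3.84 for gene G to 18.4 for gene C, all to the right of the median. All 9 samples enter; without vena cava 1 and 3 the median of the members is 2.81.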

How the data were processed

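Polyadenylated RNA of 18 cultures was sequenced as directional, single-end reads of 75 bases. Per the labels and the study's methods, the authors used STAR 2.4.2a for alignment to CanFam3.1 and HTSeq-count 0.6.1p1 in union mode for counting, and they deposited raw read counts per gene. The annotation release and the strand setting of the counting are not given in the sources used here, so reads of overlapping or antisense genes may not be told apart. Columns were matched to samples by the names in the labels.

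CPM was computed from the deposited counts and column totals. Tests used edgeR 4.0.16 in R 4.3.3 (TMM, filterByExpr with a minimum count of 10, quasi-likelihood test) over the 9 CaPEC samples, adjusted over all genes tested, and DESeq2 1.42.0 as an alternative. Standard errors were derived from edgeR's F statistic. The code was tested on simulated data. Replicate numbers come from the titles. CaPEC samples of the same number share a code in the column names, which was taken as the dog. Same-numbered CaPEC samples had a mean correlation of deviations of -0.026 over 9 pairs, beside 0.013 over 18 pairs of different number. Samples of the same number were thus not more alike by this measure. VSMC codes differ, so no pairing across cell types was used. P-values set a difference against the variation between these samples, which came from 3 dogs. The main tests between vessels had no term for the dog.

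The members and the lists were chosen with earlier results of these data known. Without symbols, identifiers are printed for 4 members, by the smallest p-value between aorta and veins, 2 with a higher and 2 with a lower value in the aorta, and the marker lists were not used.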

Additional observations from a re-analysis of the deposited data

Results flagged for a closer look

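Dixon's test was applied to both ends of 20 groups of 9 samples (each member, the summed level of the members, and the total count, in CaPECs and in VSMCs). In 3 groups the top sample stood apart. Chance flags about 1 in 20 groups of unselected values, but the rule chose the members on these values and kept those in VSMCs below 2 CPM, so the number of groups is a description and not a test. Gene B was at 241 CPM in CaPECs from vena porta 1, against 140.2 CPM in the next highest CaPEC sample. Gene A (ENSCAFG00000013538) was at 0.740 CPM in VSMCs from aorta 1, which is 9 counts, against 0.288 CPM in the next highest. Gene D (ENSCAFG00000028975) was at 1.84 CPM in VSMCs from vena cava 1, which is 29 counts, against 0.484 CPM in the next highest.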

How the results depend on the processing

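The number of endothelial-restricted genes followed the limits: 14 genes met the rule with at least 3 CPM in CaPECs, 3 with at least 10 CPM, 1 with below 1 CPM in VSMCs, and 15 with below 3 CPM. Leaving out each library gave 8 to 14 genes, the most without the aorta 1 CaPECs (14) and the vena cava 1 CaPECs (13), and leaving out vena cava 1 and 3 together, an alternative chosen after seeing the data, gave 22. A rule with fewer samples can only gain genes.

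Leaving out each CaPEC library gave 0 to 5 members called between the 3 vessels and 0 to 5 between vena cava and vena porta, in both cases with 5 only without vena cava 2 and 0 otherwise. Over all genes, 1273 and 929 were called in these comparisons without vena cava 2. Without any other library, 8 to 106 and 0 to 3 were called. With the replicate block and without vena cava 2, 4 members were called in both comparisons. The aorta against veins and the dogs gave 0 members when any single library was left out. Over all genes, this called from 20 of 12036 to 103 of 11505 between aorta and veins, and 0 or 1 between the dogs. DESeq2 gave 1 member between aorta and veins, with and without the replicate block. Of all 11696 genes tested, it called 528 with the block and 514 without it. The replicate block in edgeR gave 0 members in each vessel comparison with all 9 samples, so it changed no call of a member, while over all genes it lowered the number called from 101 to 19 between the 3 vessels, from 105 to 47 between aorta and veins, and from 1 to 0 between vena cava and vena porta. The settings with DESeq2 and the block together, and with the block and fewer libraries, were added after seeing the data.

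Of 256 log2 fold changes of single genes under these alternatives, 227 kept direction and call, 11 passed the threshold, and 18 changed sign, none of them called. Without vena cava 1 and 3, the aorta contrast changed to -0.035 (gene A), -0.34 (gene B), -0.20 (gene F), and -0.045 (gene H), and the vena cava contrast to 0.33 (A), 0.61 (C), 0.43 (D), 0.64 (E), -0.57 (G), and 0.33 (H). With single libraries left out, the aorta contrast ranged from -0.14 to 0.36 for gene B, from -0.013 to 0.46 for gene F, and from -0.52 to 0.55 for gene H, and the vena cava contrast from -1.08 to 0.032 for gene D, from -0.16 to 0.45 for gene G, and from -0.74 to 0.53 for gene H. The cause was not tested. In the smallest CaPEC sample (6020932 counts) the lower limit of 5 CPM is 30.1 reads, and in the smallest VSMC sample (7341227 counts) the upper limit of 2 CPM is 14.7 reads, which limits how sharply membership is drawn.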

Other observations

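Without the vena cava 1 and 3 CaPECs, 14 further genes met the rule. Of these, 11 were below 5 CPM in vena cava 1, 9 in vena cava 3, and 6 in both. Their median was 1.64 CPM in vena cava 1 and 3.09 CPM in vena cava 3, while it was 13.2 CPM in vena cava 2, where they ranged from 5.45 to 102.8 CPM. These genes were chosen by these values, which are therefore a description.

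The 5 genes restricted to VSMCs had a ratio of the highest to the lowest VSMC sample of 1.65 to 4.97, with a median of 2.94, beside a median of 1.75 over the 7810 genes at 5 CPM or more in all VSMCs. In the 8 endothelial-restricted genes, the same ratio over CaPECs had a median of 8.14 with all 9 samples. Without vena cava 1 and 3 the median was 2.81. Leaving out samples cannot raise this ratio, and over the 7909 genes its median went from 2.01 to 1.76. The 2.81 is over fewer samples than the 2.94 in VSMCs, so these values are not a like comparison. The difference between CaPECs and VSMCs was not tested. The summed level of the 5 VSMC-restricted genes was 0.132 CPM in vena cava 1 CaPECs and 3.25 CPM in vena cava 3 CaPECs, within the 0 to 3.99 CPM of all CaPEC samples, a range that the rule itself limits.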
